A study of Drosophila melanogaster with 16 samples.

Results

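The Dscam genes of Drosophila encode cell surface receptors of the immunoglobulin superfamily, and the genome holds 4 paralogs, Dscam, Dscam2, Dscam3 and Dscam4. They were taken by symbol from the per-isoform count tables, where they make up 90 of 25701 isoform entries and 4 of 15182 genes. The set was chosen by symbol with results in view: it was selected on the H3K27me3 gene-body counts of Dscam2 in Tdc2 and R57C10 nuclei, which were already known to differ. That contrast is therefore described below without a test. The remaining marks were tested in fits over all genes. OK107 against R57C10 in H3K27me3 shares the R57C10 libraries with that contrast, so Dscam2 is given there as description too, and the other 3 genes, whose own values did not choose the set, were tested.

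Chromatin was immunoprecipitated from nuclei of adult fly heads, pooled over many flies, and the reads were counted on the dm3 assembly. Nuclei carried the nuclear envelope tag unc84-GFP under a GAL4 driver in every group and were captured with an antibody, so each group is a line of 1 driver and no group lacked a driver and tag. R57C10-GAL4 drives the tag in all mature neurons, OK107-GAL4 primarily in Kenyon cells, whose axons form the mushroom body lobes, and Tdc2-GAL4 primarily in octopaminergic neurons. R57C10 nuclei are thus a mixture that includes neurons of the other two kinds. There were 16 libraries. For H3K27me3 there were 2 libraries of R57C10, 1 of OK107 and 2 of Tdc2; for H3K4me3 and for H3K27ac there were 2 of R57C10 and 1 each of OK107 and Tdc2; and each line had 1 input library of chromatin without immunoprecipitation. Where a group had 2 libraries they are called early and late by the date tag of their columns. In such pooled nuclei, a mark in fewer cells and less of the mark per cell cannot be told apart.

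Dscam, also known as Dscam1, is famous for alternative splicing of its exon clusters, which yields a very large repertoire of receptor isoforms that each bind to themselves, and it lets sister branches of 1 neuron recognise and avoid each other, including the axon branches of Kenyon cells. Dscam2 is a homophilic receptor that mediates repulsion between neighbouring neurons of the same class in the visual system, which keeps their processes apart. Dscam3 and Dscam4 are less studied receptors with the same arrangement of extracellular domains. H3K4me3 marks active promoters, H3K27ac marks active promoters and enhancers, and H3K27me3 is the repressive mark laid down by Polycomb complexes, often over whole genes.

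The genes are long and lie apart. Dscam (CG17800) spans 62.3 kb of chromosome arm 2R, from 3207059 to 3269374, with 74 annotated isoforms that share 1 promoter window and 1 gene body. Dscam2 (CG42256) spans 30.6 kb of 3L, from 7152415 to 7183017, with 9 isoforms that share 1 promoter window and end at different places, giving 7 gene bodies. Dscam3 (CG31190) spans 30.8 kb of 3R, from 13300555 to 13331389, with 4 isoforms. Dscam4 (CG42330) spans 42.5 kb of 3L, from 8231747 to 8274251, with 3 isoforms and 2 promoter windows. Dscam, Dscam2 and Dscam3 are transcribed toward lower coordinates and Dscam4 toward higher ones. Promoter windows are 1001 bp around an annotated start. The Dscam4-RE window overlaps the promoter window of CG7213 by 471 bp, the Dscam4-RD window lies wholly inside the CG7213 gene body, and the gene body of cos enters the Dscam promoter window by 206 bp, so reads of these neighbours cannot be told apart there. All 4 genes passed the filter on low counts in all 3 marks.

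Total counts ranged from 6014866 to 46639284 in promoter windows for H3K4me3, from 7946606 to 17200471 for H3K27ac, and from 7774487 to 54752433 over gene bodies for H3K27me3. The Tdc2 libraries were the shallowest of each mark. They were also the least enriched. The interquartile range of the log2 ratio of mark to input over all genes was 0.92 in Tdc2, 1.56 in OK107 and 1.95 to 2.01 in R57C10 for H3K27ac at promoters. For H3K4me3 it was 2.39 in Tdc2, 4.67 in OK107 and 4.08 to 5.52 in R57C10. For H3K27me3 over gene bodies it was 0.81 and 0.84 in Tdc2, 0.99 and 1.24 in R57C10 and 1.2 in OK107. Levels are counts per 1000000 counts of a library (CPM), scaled by TMM for marks and by total count for inputs, and log2 ratios use a pseudocount of 1 CPM. The 7 Kenyon cell markers summed to 608 CPM of promoter H3K27ac in OK107 against 380 to 394 in R57C10, and the 3 octopaminergic markers to 246 in Tdc2 against 124 to 132. Much of the Kenyon cell sum was ey, at 254 CPM in OK107 against a mean of 57.3 in R57C10. CG10251, toy and dac were also higher in OK107, whereas Mef2, Fas2 and rut were lower. Among octopaminergic markers Tdc2 and Vmat were higher in Tdc2 nuclei, and Tbh was level, at 34.3 against a mean of 34.4. The 6 pan-neuronal markers summed to 837 to 915 CPM in R57C10, 546 in OK107 and 536 in Tdc2. The 8 glial markers summed to 381 to 384, 499 and 511 CPM in the same order, the 8 photoreceptor markers to 405 to 462, 564 and 562, and the 8 muscle, fat body and blood markers to 174 to 187, 249 and 310. No marker was at 0 in any library. The part of these markers in the results below was not tested. R57C10 libraries carried other date tags than OK107 and Tdc2 libraries in every mark, except that the early R57C10 H3K27me3 tag also occurs on OK107 and Tdc2 libraries of other marks, so line and tag cannot be told apart in any comparison with R57C10.

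Over gene bodies, H3K27me3 set Dscam3 and, in Tdc2 nuclei, Dscam2 apart from Dscam and Dscam4. Dscam3 was above input in every library, with log2 ratios of 0.56 and 0.88 in R57C10, 0.92 in OK107 and 0.25 and 0.33 in Tdc2, which placed it between the 87.0th and the 89.5th percentile of all genes. Dscam was below input throughout, at −0.86 and −0.90 in R57C10, −0.40 in OK107 and −0.69 and −0.85 in Tdc2. Dscam4 was also below input in each library, between −0.92 and −0.70. Dscam2 was below input at −0.94 and −1.0 in R57C10 and −0.60 in OK107, and above it at 0.17 and 0.12 in Tdc2. Its percentile among all genes was 29.7 and 35.2 in R57C10, 50.8 in OK107 and 84.8 and 82.0 in Tdc2.

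**Figure D1:**
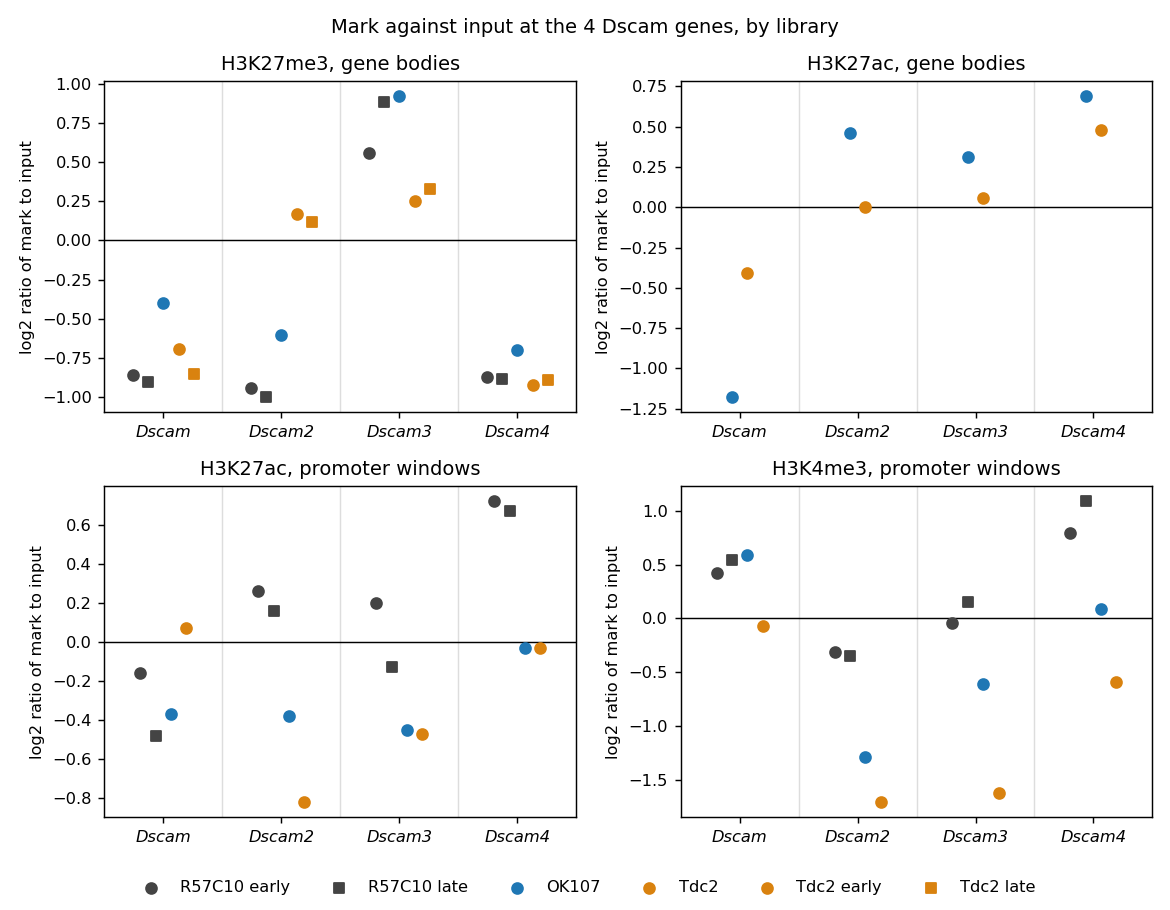
Log2 ratio of mark to input for each Dscam gene, with 1 point per library, circles for early or single libraries and squares for late ones. In H3K27me3 the Dscam2 points of Tdc2 (0.17 and 0.12) lie above the input line and those of the other lines below it, and in H3K27ac over gene bodies, shown for OK107 and Tdc2, Tdc2 is the higher of the lines in Dscam and the lower in the other 3 genes.

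In levels, Dscam2 H3K27me3 was 179 and 172 CPM in R57C10, 230 CPM in OK107 and 411 and 397 CPM in Tdc2. Both Tdc2 libraries were higher than every other library, while the input over the gene was 346 CPM in R57C10, 348 CPM in OK107 and 366 CPM in Tdc2. The fitted log2 fold of Tdc2 against R57C10 was 1.20 ± 0.13 (SE), or 2.3-fold, at the 98.7th percentile of all genes. Dscam3 was 534 and 666 CPM in R57C10, 725 CPM in OK107 and 455 and 479 CPM in Tdc2, so the Tdc2 libraries were the lowest, with a log2 fold of −0.36 ± 0.15 against R57C10. Dscam was 515 and 501 CPM in R57C10 and 565 and 506 CPM in Tdc2, which overlap, with a log2 fold of 0.08 ± 0.13. Dscam4 was 269 and 267 CPM in R57C10 and 275 and 281 CPM in Tdc2, a log2 fold of 0.05 ± 0.12. The Dscam2 fold chose the set, and all 4 are given as description. The Tdc2 and R57C10 libraries were separate for 3 of the 4 genes, beside 61.6% of all genes, and 19.7% of all genes passed a false discovery rate of 0.05 in that contrast. The Dscam2 fold lay between 1.11 and 1.55 in 14 alternative settings, whereas that of Dscam3 turned positive in some of them.

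OK107 against Tdc2, which uses the same Tdc2 libraries and is likewise given as description, showed Dscam2 lower in OK107 by a log2 fold of −0.81 ± 0.16. Dscam and Dscam3 were higher in OK107, at 0.55 ± 0.16 and 0.64 ± 0.17, and Dscam4 was at 0.19 ± 0.15. Over 14 alternative settings Dscam2 stayed between −1.21 and −0.61, whereas Dscam ranged from 0.10 to 0.73, Dscam3 from −0.01 to 0.67 and Dscam4 from −0.21 to 0.37. The OK107 library lay outside the Tdc2 libraries for all 4 genes, beside 73.2% of all genes, and 15.4% of all genes passed the threshold. The OK107 library and the early Tdc2 library share a date tag.

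OK107 against R57C10 asks whether Kenyon cell nuclei differ from neurons at large. In H3K27me3 none of Dscam, Dscam3 and Dscam4 passed the edgeR test, beside 2.19% of all genes that did; Dscam alone had an unadjusted p under 0.05, and DESeq2 called it. Dscam was the nearest to it: 781 CPM in OK107 stood above 515 and 501 CPM in R57C10, with a log2 fold of 0.62 ± 0.16, at the 95.7th percentile of folds, and an adjusted p of 0.0767 (edgeR quasi-likelihood test, Benjamini-Hochberg over 14585 genes). Dscam2, as description, had a log2 fold of 0.39 ± 0.15. Dscam3 had one of 0.27 ± 0.18 (edgeR adjusted p = 0.887) and Dscam4 of 0.24 ± 0.15 (edgeR adjusted p = 0.87). OK107 lay above both R57C10 libraries for each of the 4 genes, beside 36.9% of all genes. The Dscam result rests on the setting, since it passed with DESeq2 at an adjusted p of 0.00603. It also passed in edgeR with total count scaling (edgeR adjusted p = 1.51e-05) and with loess scaling by level (edgeR adjusted p = 0.023). With either R57C10 library left out, each compared line had 1 library and the spread came from the Tdc2 pair alone, so p-values there speak for that pair and are not read as calls. The fold of Dscam was 0.60 without the early and without the late R57C10 library, and that of Dscam3 was 0.08 and 0.44.

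Within Dscam2, the nested gene bodies allowed the counts to be split by subtraction into 5 stretches, shown because they place the H3K27me3 of Tdc2 nuclei along the gene. The 15.8 kb next to the start site had log2 ratios of −0.98 and −1.01 in R57C10, −0.68 in OK107 and −0.18 and −0.25 in Tdc2. The next 3.36 kb had −0.82 and −0.81 in R57C10, −0.54 in OK107 and 0.36 and 0.57 in Tdc2. The following 7.46 kb had −0.78 and −0.94, −0.53, and 0.49 and 0.36 in the same order. Tdc2 was therefore above the other lines in each stretch and above input from the second stretch on. The last stretches, of 3.0 and 0.99 kb, gave Tdc2 ratios of 0.14 and 0.11, and of 1.06 and 1.01; the last one rests on 143 to 165 Tdc2 reads, and the OK107 input there was 3.77 CPM per kb against 10.2 in R57C10.

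Gene-body counts of H3K27ac were used for OK107 and Tdc2, with 1 library each, so these values carry no test, and they are on a total-count scale; those of R57C10 were not used here. In the 15.8 kb stretch at the start site of Dscam2 the log2 ratio of H3K27ac to input was 0.95 in OK107 and 0.20 in Tdc2. In the 3.36 kb stretch it was 0.50 and −0.07, in the 7.46 kb stretch −0.20 and −0.23, and in the 3.0 kb stretch −0.59 and −0.41. The gap between the lines in H3K27ac was thus at the start-site side of the gene, where both lines had more of this mark than farther on.

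**Figure D2:**
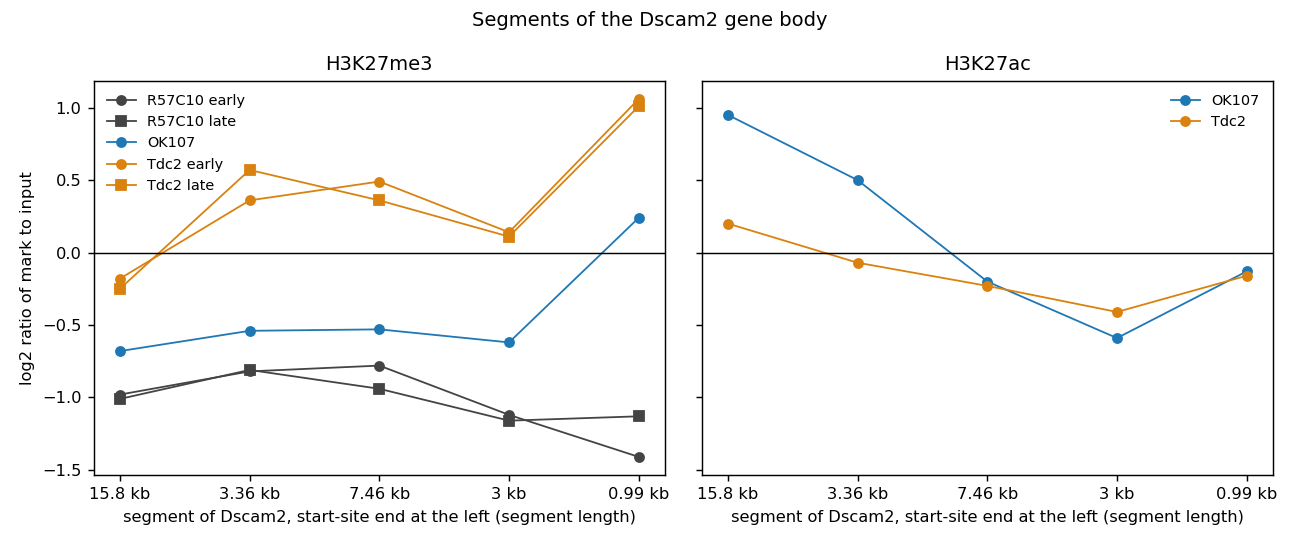
Log2 ratio of H3K27me3 (left) and H3K27ac (right) to input in 5 stretches of Dscam2, ordered from the start site, with 1 line per library. H3K27me3 of Tdc2 lies above that of the other lines in all 5 stretches, and H3K27ac, shown for OK107 and Tdc2, differs most in the 15.8 kb stretch, at 0.95 and 0.20.

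Windows of 10 kb, counted every 5 kb for OK107 and Tdc2 with 1 OK107 library and the authors' pooled Tdc2 H3K27me3 column, showed the same span without annotation. Their ratios are on a total-count scale, so they sit apart from the gene values above. Of 23347 windows, the median difference of Tdc2 minus OK107 in H3K27me3 was 0.39 on the log2 scale. The 4 windows inside Dscam2 differed by 0.82 to 1.48, and the excess went on upstream, at 1.11 in the window centred at −6.98 kb from the start site and 0.83 in that at −22.0 kb. No other gene of the table lies within 25 kb upstream of Dscam2. Downstream, beyond the gene, the difference was −0.38 at 38.0 kb from the start site, in a window within corn. H3K27ac differed by −0.74 to −0.02 inside Dscam2, beside a median of 0.04 over all windows. This difference was not confined to the gene, at −0.56 in the window at −6.98 kb and −0.57 in that at 38.0 kb. In Dscam3 all 4 inside windows were above input in H3K27me3 in both lines, at 0.30 to 0.50 in OK107 and 0.15 to 0.36 in Tdc2.

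Along Dscam the windows showed low H3K27ac away from the start site. The log2 ratio in OK107 fell from 0.20 in the window centred 9.37 kb inside the gene to −1.97 at 34.4 kb, and that in Tdc2 from 0.38 to −0.84. Tdc2 was higher than OK107 in all 10 inside windows, by 0.18 to 1.15, and the largest of these differences was at the 99.3rd percentile of all windows. The window of that difference, centred 39.4 kb inside the gene, had 14666 input reads in OK107 and 8324 in Tdc2, beside 4351 and 4447 reads of H3K27ac, so the raised OK107 input is part of that difference; the window at 34.4 kb had 12802 and 8384 input reads. H3K27me3 in the same windows was below input in both lines. In Dscam4 all 6 inside windows were above input in H3K27ac in both lines, at 0.60 to 1.07 in OK107 and 0.38 to 0.92 in Tdc2, and below input in H3K27me3.

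**Figure D3:**
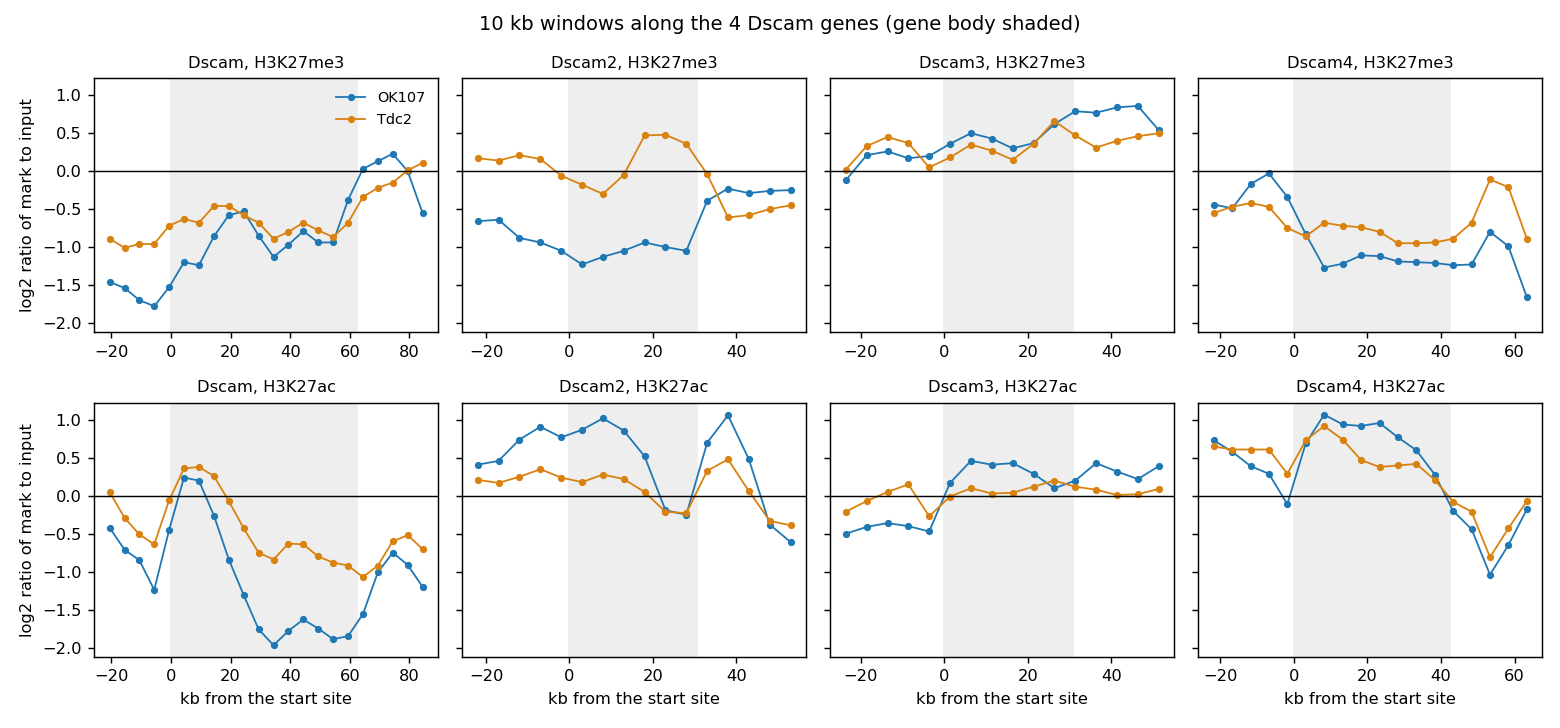
Log2 ratio of mark to input in 10 kb windows against distance from the start site, with the gene body shaded, for OK107 and Tdc2. The H3K27me3 curves of the lines part over Dscam2 and upstream of it by 0.82 to 1.48 inside the gene, and H3K27ac along Dscam drops to −1.97 in OK107 and −0.84 in Tdc2 at 34.4 kb.

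Counted over whole gene bodies, H3K27ac of Dscam was 454 CPM in OK107 and 685 CPM in Tdc2, against inputs of 1030 and 913 CPM. Dscam2 was 479 CPM in OK107 and 365 CPM in Tdc2, Dscam3 477 and 399 CPM, and Dscam4 831 and 730 CPM. Dscam was thus higher in Tdc2 and the other 3 genes were higher in OK107. Dscam4 was among the most acetylated gene bodies of both lines, at log2 ratios of 0.69 and 0.48 and the 91.3rd and 90.5th percentile of all genes, while Dscam was below input and below the median of all genes, at −1.18 and −0.41 and the 10.2nd and 27.1st percentile. Each difference ran toward the input in Tdc2, whose interquartile range of this ratio over all genes was 0.69 against 1.04 in OK107; the part of that narrower spread in the differences was not tested.

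**Figure D4:**
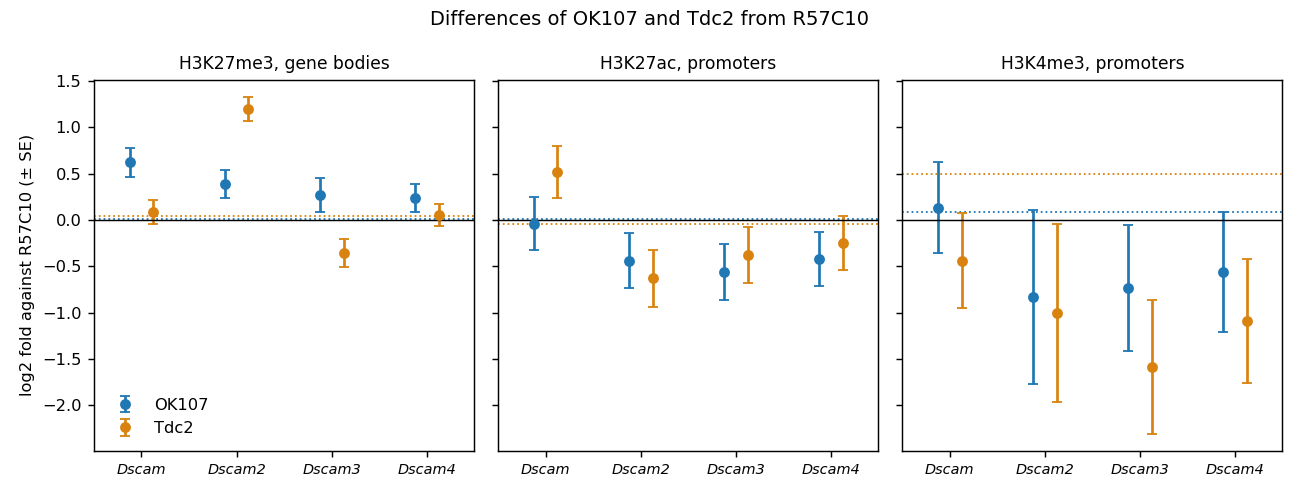
Log2 fold of OK107 and of Tdc2 against R57C10 for each Dscam gene, with bars for ± 1 SE of the fit and dotted lines at the median of all genes. In H3K27me3 the Tdc2 fold of Dscam2 (1.20) lies apart, and in promoter H3K27ac and H3K4me3 the folds of Dscam2, Dscam3 and Dscam4 lie below 0 in both lines with errors as wide as ± 0.96.

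At promoters, no Dscam gene passed in H3K27ac, beside 10.5% of all genes in OK107 against R57C10 and 27.8% in Tdc2 against R57C10 by edgeR. At an unadjusted p under 0.05 there were 0 of 4 in OK107 and 1 of 4, Dscam2, in Tdc2, and DESeq2 called 0 in each. The share of all genes at that unadjusted threshold is not given here. Dscam2 was 58.8 and 54.8 CPM in R57C10, 41.9 CPM in OK107 and 36.7 CPM in Tdc2, with log2 folds of −0.44 ± 0.30 (edgeR adjusted p = 0.369) and −0.63 ± 0.31 (edgeR adjusted p = 0.107). Dscam3 was 59.7 and 47.3 CPM, 36.4 CPM and 41.1 CPM in the same order, and Dscam4 44.7 and 43.1 CPM, 32.9 CPM and 36.8 CPM. These 3 genes were below both R57C10 libraries in OK107 and in Tdc2, beside 40.5% and 43.9% of all genes. Dscam was 37.0 and 29.4 CPM in R57C10, 32.4 CPM in OK107, inside their range, and 47.7 CPM in Tdc2, a log2 fold of 0.52 ± 0.28 (edgeR adjusted p = 0.153). With the inputs as an offset, Dscam2 (edgeR adjusted p = 0.00521) and Dscam4 (edgeR adjusted p = 0.0426) passed in Tdc2 against R57C10. The share of all genes called in that setting is not given here. All calls in this comparison ran from 282 to 5551 over the alternative settings, the highest over all isoforms. The Dscam2 promoter had 48.9 CPM of input in R57C10 and 65.6 CPM in Tdc2.

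The promoter of Dscam4 isoform RD differed from that of RE. It held 16.1 and 14.1 CPM of H3K27ac in R57C10, 28.5 CPM in OK107 and 31.2 CPM in Tdc2, all below the input of 32.2 to 41.1 CPM. Its H3K4me3 was far below input, at log2 ratios of −2.61 and −3.09 in R57C10, −2.25 in OK107 and −1.42 in Tdc2. The part of the narrower H3K27ac spread of OK107 and Tdc2 in the values of this window was not tested. In the fit over all distinct promoters, H3K27ac of the RD window rose by a log2 fold of 0.94 ± 0.27 in OK107 (edgeR adjusted p = 0.00904) and 1.05 ± 0.27 in Tdc2 (edgeR adjusted p = 0.00118), beside 13.5% and 29.1% of all promoters. The RE promoter had −0.39 ± 0.28 and −0.25 ± 0.28 in that fit (edgeR adjusted p = 0.37 and 0.507). The RD window lies inside CG7213, and its rise lost the call with loess scaling along level, at 0.57 (edgeR adjusted p = 0.121) in OK107 and 0.15 (edgeR adjusted p = 0.769) in Tdc2. In the 2.48 kb that the RD gene body adds to RE, which also lies mostly in CG7213, the H3K27me3 ratio was 0.11 and 0.06 in R57C10, 0.18 in OK107 and −0.90 and −1.15 in Tdc2.

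In log2 ratio of H3K4me3 to input, the promoters lay between the 51.8th and the 65.3rd percentile of all genes in R57C10 and OK107. In Tdc2, Dscam and Dscam4 were at the 62.2nd and 56.6th percentile and Dscam2 and Dscam3 lower, at the 32.6th and 37.4th. Dscam was 56.6 and 61.5 CPM in R57C10, 64.8 CPM in OK107 and 43.5 CPM in Tdc2, against an input of 42.0 to 45.8 CPM. Dscam2 was 39.9 and 38.8 CPM in R57C10, 22.1 CPM in OK107 and 19.5 CPM in Tdc2, under its input in every library. Dscam3 was 51.2 and 58.5 CPM, 32.8 CPM and 18.2 CPM in the same order, and Dscam4 47.4 and 58.9 CPM, 36.1 CPM and 25.0 CPM. Dscam2, Dscam3 and Dscam4 were thus below both R57C10 libraries in OK107 and in Tdc2, beside 16.5% and 41.6% of all genes.

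No Dscam gene passed in H3K4me3, where 0.00679% of all genes passed in OK107 against R57C10 and 0% in Tdc2 against R57C10 by edgeR, and DESeq2 called 5 genes and 1 gene. At an unadjusted p under 0.05, 1 of the 8 tests passed, that of Dscam3 in Tdc2, with a log2 fold of −1.59 ± 0.72 (edgeR adjusted p = 0.653), and DESeq2 called 0. The share of all genes at that unadjusted threshold is not given here. The folds of Dscam2 and Dscam4 in Tdc2 were −1.01 ± 0.96 and −1.09 ± 0.67, beside a median of 0.50 over all genes. The common dispersion was 0.199, against 0.024 in H3K27ac. With errors of this size, the lack of a call does not show that there was no difference. Between OK107 and Tdc2, with 1 library each and no test, the Dscam genes differed by 0.18 to 0.85 in H3K4me3 and by −0.56 to 0.19 in H3K27ac, on the log2 scale. None went past the 99th percentile of the differences between the R57C10 libraries, 1.72 and 0.881, which 7.83% and 4.64% of all genes did.

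Across the 9 combinations of mark and line, Dscam and Dscam4 were the most alike of the 6 pairs of paralogs, with a root mean square difference of 0.47 in log2 ratio to input (promoters for H3K4me3 and H3K27ac, gene bodies for H3K27me3). The other pairs differed by 0.81 to 1.05. Of all genes, 2.67% were nearer to Dscam than Dscam4 was, 31.7% were nearer than Dscam2 and 35.9% nearer than Dscam3. Counted from Dscam2, 4.18% were nearer than Dscam3 and 5.85% nearer than Dscam4. From Dscam3, 5.36% were nearer than Dscam4. Genes whose symbols begin with CG or CR were left out of the search for nearest genes, so a nearer one among them is possible. Of the rest, the nearest to Dscam2 was gogo, at 0.30, which encodes an axon guidance receptor of photoreceptors. It was followed by vfl, the pioneer factor also called Zelda, at 0.34. Nearest to Dscam3 were Sans and Hr38, a nuclear receptor induced by neuronal activity, at 0.29 and 0.32. Nearest to Dscam4 were Sln and Nrx-1, the synaptic adhesion protein neurexin, at 0.20 and 0.24, and nearest to Dscam were snoRNA:Psi28S-3405a at 0.12 and Tab2 at 0.24. The median difference to all 14527 genes, those with CG or CR symbols included, was 1.40 to 1.62.

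Among 13 known partners and regulators of Dscam, such as the adaptor dock and its effector Pak, fra, the Netrin receptor, had the largest H3K27me3 difference in OK107 against R57C10, where it rose by a log2 fold of 1.18 ± 0.16 (edgeR adjusted p = 0.00517), and its promoter H3K27ac fell by −0.97 ± 0.32 (edgeR adjusted p = 0.0291). The ligand NetB fell by −1.08 ± 0.19 in H3K27me3 (edgeR adjusted p = 0.0135). No other partner passed in that mark, so 1 of 13 rose and 1 fell, beside 2.19% of all genes called by edgeR, with a median of 0.01 beside 0.01 over all genes. DESeq2 called 4 of 13, and its share of all genes is not given here. In H3K27ac of OK107 the phosphatase gene Ptp69D fell as well, by −0.96 ± 0.31 (edgeR adjusted p = 0.0267), so 2 of 13 fell and 0 rose, beside 10.5% of all genes called, but DESeq2 called 0 of 13. In Tdc2 against R57C10, 1 partner rose and 3 fell in H3K27me3, beside 19.7% of all genes called, among them sli, a midline guidance ligand, by −1.13 ± 0.16 (edgeR adjusted p = 0.000349). No partner passed in H3K27ac by edgeR, beside 27.8% of all genes, and DESeq2 called 0. An unadjusted p under 0.05 was had there by 2 of 13, and the share of all genes at that threshold is not given here.

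Of 23 other neuronal adhesion genes, 14 fell and 0 rose in H3K27me3 in Tdc2 against R57C10, the direction opposite to that of Dscam2, beside 19.7% of all genes called in either direction, with a median of −0.50 beside 0.04 over all genes. The largest were trn at −1.57 ± 0.17 (edgeR adjusted p = 9.5e-05) and caps at −1.43 ± 0.16 (edgeR adjusted p = 0.000101), both leucine-rich repeat receptors. The interquartile range of the H3K27me3 ratio to input over all genes was 0.81 and 0.84 in Tdc2 against 0.99 and 1.24 in R57C10. The part of that narrower spread in the adhesion gene count was not tested. In OK107 against R57C10, 1 of the 23 rose and 2 fell, beside 2.19% of all genes called by edgeR. DESeq2 called 8 of the 23, and its share of all genes is not given here. In H3K27ac 1 fell in OK107 and 2 fell in Tdc2, among them Nrt, a surface adhesion protein, by −1.04 ± 0.31 (edgeR adjusted p = 0.0182) and −1.15 ± 0.32 (edgeR adjusted p = 0.0028), beside 10.5% and 27.8% of all genes called. DESeq2 called 0 of the 23 in OK107, so the Nrt call there was lost, and 2 in Tdc2. Of 8 splicing factors, some of which act on Dscam exons, 4 fell in promoter H3K27ac in Tdc2, led by Hrb87F at −1.22 ± 0.32 (edgeR adjusted p = 0.00159), and 0 rose, beside 27.8% of all genes called, whereas DESeq2 called 1 of the 8. In that comparison 3 of 6 pan-neuronal markers fell, and 2 of 8 glial, 4 of 8 photoreceptor and 4 of 8 muscle, fat body and blood markers rose; their part in it was not tested. In H3K27me3 of Tdc2, 1 of the 8 rose and 1 fell, the latter mbl, the muscleblind splicing regulator, by −1.84 ± 0.17 (edgeR adjusted p = 6.48e-05). No partner, adhesion gene or splicing factor passed in H3K4me3 by edgeR or DESeq2. In that mark 5 of 13 partners, 4 of 23 adhesion genes and 1 of 8 splicing factors had an unadjusted p under 0.05 in Tdc2. In OK107 1 partner had one, with 0 adhesion genes and 0 splicing factors. The share of all genes under that p is not given here, so these counts carry no comparison with it. In the same comparison of Tdc2 with R57C10, 3 of 6 pan-neuronal markers (n-syb, Syt1 and nrv3) rose and 0 fell in H3K27me3, the direction of Dscam2. There 4 of 8 photoreceptor markers, 3 of 8 glial markers and 2 of 8 muscle, fat body and blood markers fell and 0 rose, and the part of these markers in the list counts and in the Dscam2 fold was not tested.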

How the data were processed

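Raw read counts per annotated isoform were deposited by the authors for promoter windows of 1001 bp and for gene bodies, along with raw counts in windows of 10 kb placed every 5 kb. Per the submitters' processing notes, CASAVA 1.8, Bowtie 0.12.7 and bedtools 2.15 were used with build dm3; the treatment of reads with several matches is not given in the sources used here, which bears on paralogs. Another 59 sample columns of these tables were not used, among them gene-body columns of R57C10 H3K27ac. Leaving those out was a choice in mapping columns to samples. The R57C10 columns of marks that were used likewise match the group and not a replicate. No R57C10 spread is therefore given beside the gene-body H3K27ac of OK107 and Tdc2. Isoforms without a gene (203, with 0.463 to 1.16% of counts) and 92 spike-in entries with 0 counts were left out of library sizes and tests.

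A single isoform stood for each gene, that with the most reads summed over a mark's libraries. Each mark was fitted over all lines with edgeR 4.0.16 in R 4.3.3 (quasi-likelihood, TMM, default filter on low counts), with a false discovery rate of 0.05 over all tested genes, of which there were 14585 in H3K27me3, 14732 in H3K4me3 and 14710 in H3K27ac. Residual degrees of freedom were 2, 1 and 1, and single libraries were assumed to vary like the replicated groups. Nothing in the labels ties replicates to separate cultures or fly collections, and p-values then cover no more than the spread seen among these libraries, possibly a technical one. Inputs had 1 library per line. Windows needed at least 10 CPM of input. The fits were also run on simulated data, and no result of that run is given here. Alternatives were DESeq2 1.42.0, scaling by total count or RLE, the compared lines only, no filter, input offset, the isoform with the largest input, all isoforms, loess scaling along level and along enrichment in the outside line, and leaving out each library of a pair.

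The members, gene lists and tests were chosen with earlier results of these data known. Named genes were the 4 Dscam genes, called members of the Dscam-related lists (at most 4 per comparison, by size of fold), and genes among the 3 nearest to each Dscam gene whose symbols do not begin with CG or CR. Markers were given by counts and sums, and some by name.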

Additional observations from a re-analysis of the deposited data

How the results depend on the processing

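The count of Dscam genes past the threshold was 0 for each of the 5 tested comparisons of promoters or H3K27me3. In H3K27me3 of OK107 against R57C10 it was 1 with total count scaling, loess scaling by level, loess scaling by enrichment and DESeq2, and 0 to 3 when 1 library was left out, where the counts without an R57C10 library take their spread from the Tdc2 pair alone; all these counts include Dscam2. In H3K4me3 of Tdc2 the count of Dscam genes was 1 with loess scaling by enrichment. In H3K27ac of OK107 it was 1 with the isoform of largest input, which takes the RD promoter of Dscam4. In H3K27ac of Tdc2 it was 2 with an offset from inputs, 1 with the isoform of largest input and 1 with loess scaling by level. Over the alternative settings, all calls ran from 167 to 2563 in H3K27ac of OK107 and from 282 to 5551 in that of Tdc2. The highest of these counts are over all isoforms. In H3K4me3 of Tdc2 all calls ran from 0 to 308.

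Some log2 folds changed sign. Those that use the Tdc2 H3K27me3 libraries are descriptions without a test, and the others are of genes that did not pass at the reported settings. In H3K27me3 of Tdc2 against R57C10, Dscam3 was 0.00 with total count scaling, 0.07 with loess scaling by level and 0.27 with loess scaling by enrichment, Dscam4 was −0.03 with the input offset and −0.09 with loess scaling by enrichment, and Dscam was −0.01 to 0.15 when 1 Tdc2 library was left out. In H3K27me3 of OK107 against Tdc2, Dscam4 was −0.21 with total count scaling and −0.13 with loess scaling by level, and Dscam3 was −0.01 with loess scaling by enrichment. In H3K4me3, Dscam in OK107 was −0.20 with RLE scaling and with DESeq2, and in Tdc2 it was 0.07 with total count scaling, 0.12 with loess scaling by level and 0.22 with loess scaling by enrichment. In H3K27ac, Dscam in OK107 was 0.01 with total count scaling, 0.06 with loess scaling by enrichment and −0.19 to 0.14 when 1 R57C10 library was left out, and in Tdc2 it was −0.05 with loess scaling by level. With the isoform of largest input Dscam4 was 1.07 and 1.53 in H3K4me3 and 0.89 and 1.01 in H3K27ac, in OK107 and Tdc2. The cause of these changes was not tested, apart from the isoform taken.

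Total count scaling moved the median fold of all genes in Tdc2 against R57C10 from 0.04 to 0.40 in H3K27me3 and from 0.50 to 0.93 in H3K4me3. The rise of the Dscam4 RD promoter in H3K27ac was 0.57 to 0.99 in OK107 and 0.15 to 1.18 in Tdc2 over 5 settings added after the data were seen. No paired analysis was possible because the columns carry date tags and no replicate numbers. Leaving out an R57C10 library in H3K4me3 or H3K27ac left no residual degrees of freedom, so folds but no counts were had. The 1 or 2 libraries per group limit all tests.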
